A study of Mus musculus with 6 samples.

Results

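The T cell receptor beta, gamma and delta V segments are the germline gene pieces that encode most of the variable domain of those 3 receptor chains. They were taken as every row of the deposited count table with the GENCODE M21 biotype TR_V_gene and a symbol starting with Trbv, Trgv, Tcrg-V or Trdv, which gave 34 of 55401 gene IDs: 22 beta, 7 gamma and 5 delta segments. RNA was measured in 6 mouse bone marrow libraries of 2000 sorted cells each, 3 per group, all labelled wild type. The LSK group (untreated) held Lin-Sca-1+c-Kit+ cells, the marrow fraction with stem and multipotent progenitor cells, from 6- to 8-week-old C57BL/6 animals. The ESC-derived group (treatment given as ESCs differentiation) held Lin-Sca-1+c-Kit- cells sorted from the marrow of primary recipients that had been given CD144+ cells made from embryonic stem cells. The labels read here do not state the embryonic stem cell line, the strain and age of the recipients, the number of animals behind each library, or how donor cells were told from the recipients' own cells. Nothing says that libraries of a group came from separate animals, so p-values measure only the spread between these libraries.

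A T cell receptor chain is assembled during T cell development, when the Rag recombinase joins 1 V segment to a J segment, with a D segment between them in the beta and delta chains. Each developing T cell and its descendants then transcribe a joined V segment together with a constant gene, so V segment RNA in a T cell population reflects which joins its cells carry and how much RNA each cell makes. In bulk samples such as these, fewer cells that use a segment and less RNA per cell cannot be told apart. V segments can also be transcribed from the unjoined locus, and counts per segment do not separate joined from unjoined RNA.

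The ends of the V segments that the results turn on are shown first, because they carry the start of the receptor's antigen-contacting loop (CDR3) and show how far related segments can be told apart. Each line gives the last 60 bases of the coding sequence, read 5′ to 3′ in the direction of transcription from the GENCODE M21 transcripts (GRCm38, the build of mm10). Capitals mark the stretch from the conserved cysteine codon to the end of the segment.
Trbv5, chr6:41062744-41062803, plus strand: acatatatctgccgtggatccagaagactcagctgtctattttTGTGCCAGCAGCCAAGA
Trbv19, chr6:41178989-41179048, plus strand: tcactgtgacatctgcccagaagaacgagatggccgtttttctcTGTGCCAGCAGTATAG
Trbv31, chr6:41557693-41557752, minus strand: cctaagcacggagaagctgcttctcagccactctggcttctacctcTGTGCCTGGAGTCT
Trbv13-3, chr6:41130526-41130585, plus strand: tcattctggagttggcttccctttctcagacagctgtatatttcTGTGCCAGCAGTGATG
Trbv13-2, chr6:41121773-41121832, plus strand: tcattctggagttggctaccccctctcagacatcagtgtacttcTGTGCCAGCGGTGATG
Trbv3, chr6:41048769-41048828, plus strand: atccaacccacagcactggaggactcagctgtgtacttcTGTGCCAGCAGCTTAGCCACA
Trgv2, chr13:19336573-19336632, minus strand: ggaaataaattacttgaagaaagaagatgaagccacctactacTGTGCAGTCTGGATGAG
Tcrg-V1, chr13:19340395-19340454, plus strand: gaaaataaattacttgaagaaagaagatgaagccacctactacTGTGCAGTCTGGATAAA
Tcrg-V3, chr13:19243242-19243301, plus strand: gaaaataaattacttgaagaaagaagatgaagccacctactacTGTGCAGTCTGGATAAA
Tcrg-V4, chr13:19185447-19185506, plus strand: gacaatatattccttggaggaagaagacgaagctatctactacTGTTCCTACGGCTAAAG
Trbv13-2 and Trbv13-3 differ at 8 of these 60 positions, Tcrg-V1 and Trgv2 at 3, and Tcrg-V1 and Tcrg-V3 at 0. Over whole transcripts Tcrg-V1 was 95.7% identical to Tcrg-V3 and 95.2% to Trgv2, and Trbv13-2 was 90.6% identical to Trbv13-3, against a median of 64.2% over the 231 beta pairs. Counts of these gamma segments, and of Trdv2-1 and Trdv2-2 (94.8% identical, with a shared run of 221 bases), could be split among the near copies by the counting and are uncertain for the single segment.

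Total counts per library ran from 41580006 to 49269286. Kit, which encodes the c-Kit protein used in both sorts, had 2, 4 and 6 counts in the ESC-derived group and from 2081 to 2550 in LSK libraries. Of the values from 1 to 20, 40.1 to 47.2% per library were multiples of 4, so 1 fragment may be worth about 4 counts, and 12 counts over the 3 libraries of a group (3 fragments) are used as the floor for values at 0. LSK replicate 2 lay between LSK replicates 1 and 3 for 66.5% of 8302 genes with a mean CPM of 10 or more (CPM, a count relative to the TMM-scaled library total as edgeR gives it), against 16.3 and 17.1% for the other two LSK libraries and 30.4 to 37.7% for the ESC-derived libraries. Without that library 2716 genes were called in place of 4861, and 14 of the V segments were called higher in place of 15. Trdv4 and Tcrg-V7 lost their calls and Trdv1 gained one, while the group differences in beta diversity, leading share and gamma-delta share moved by less than the LSK SD. Separate samples of one population would each lie in the middle about equally often. Whether LSK replicate 2 is independent of the other LSK libraries was not tested, and if it is not, the LSK group holds fewer than 3 independent libraries and p-values are too small.

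V segment RNA was abundant in the ESC-derived libraries and close to the lower limit of measurement in the LSK libraries. The 34 segments together held 57836, 58157 and 59795 counts in ESC-derived replicates 1 to 3 and 411, 463 and 495 in LSK replicates 1 to 3. On the CPM scale this was 1337 ± 64.4 against 9.80 ± 1.19 (SD; n = 3 libraries per group, as for each later mean). The groups did not overlap. With 3 libraries against 3, an exact two-sided permutation test cannot go below p = 0.1, which this sum reached, so such tests cannot pass 0.05 here.

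Of the 34 segments, 26 passed the filter on low counts and were tested with all other genes by the edgeR quasi-likelihood test (Benjamini-Hochberg adjustment over 16211 genes, threshold 0.05). Of these, 15 were called higher in ESC-derived cells, 0 lower, and 11 were not called. Among all genes tested, 30.0% were called, 14.8% higher and 15.2% lower. In 17 segments each ESC-derived library lay above each LSK library, and 22.6% of all tested genes did so (49.8% did not overlap in either direction). Many segments passed the filter through their ESC-derived counts, so the number called is a description and not support for a shared shift. The 0 lower calls were 0 also at an unadjusted p under 0.05, and 0 with DESeq2 and with limma-voom, by adjusted and by unadjusted p. The calls comprised 8 beta, 5 gamma and 2 delta segments. The 8 segments not tested were Trbv20, Trbv21, Trbv23, Trbv30, Tcrg-V5, Tcrg-V6, Trdv2-1 and Trdv5. Of these Trbv21, Tcrg-V6 and Trdv2-1 had 0 counts in each of the 6 libraries.

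**Figure D1:**
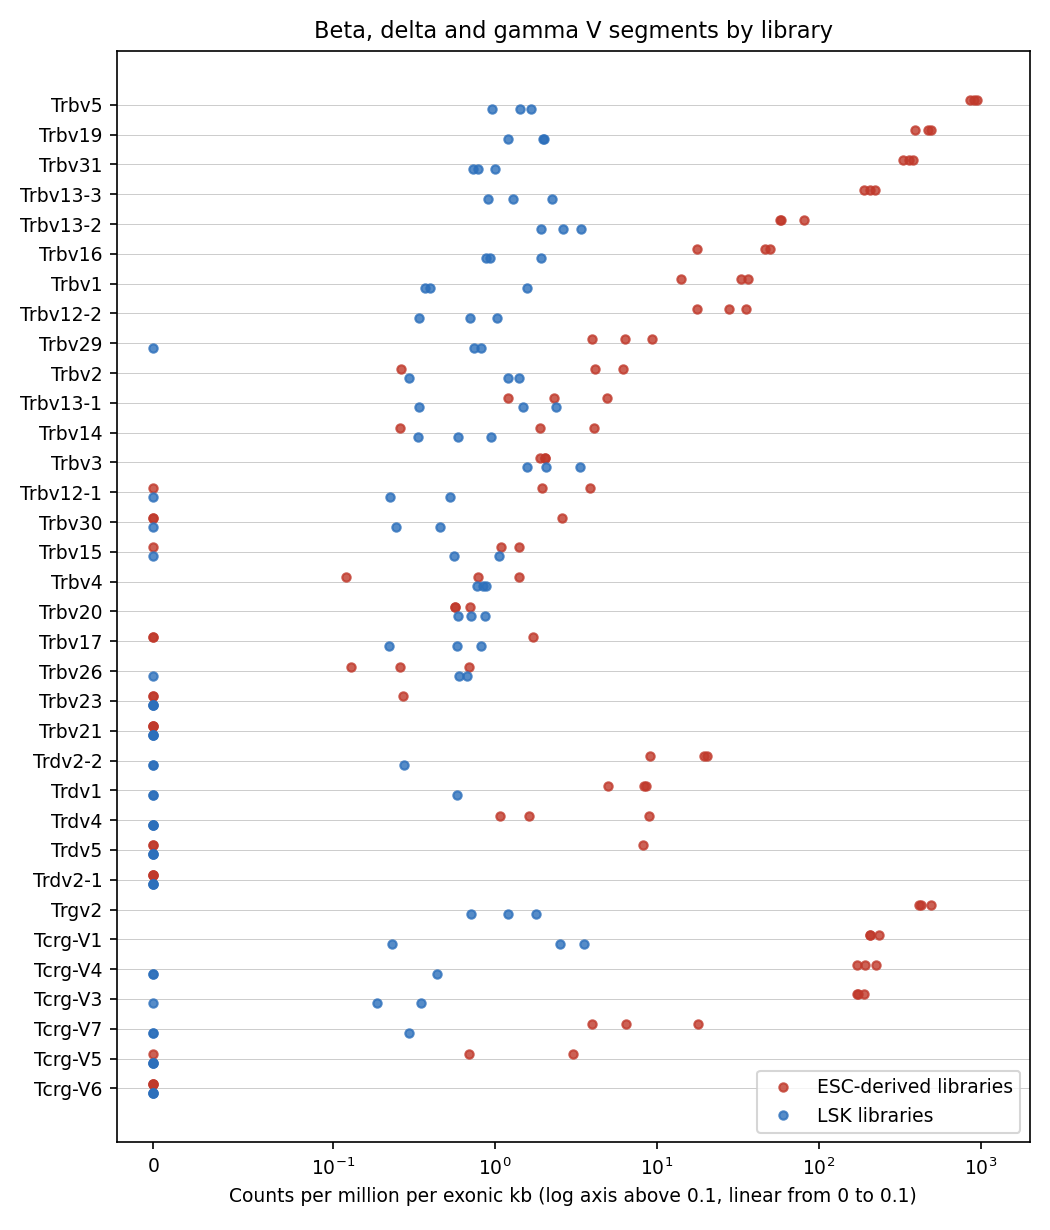
Level of each of the 34 V segments in every library, in CPM per exonic kb (log axis above 0.1, linear below it). Red points are the 3 ESC-derived libraries and blue points the 3 LSK libraries. The upper beta segments, from Trbv5 to Trbv12-2, and the gamma segments Trgv2, Tcrg-V1, Tcrg-V4 and Tcrg-V3 lie far above their LSK values, while beta segments from Trbv2 downward have overlapping groups.

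The beta chain pairs with the alpha chain in most T cells. In the ESC-derived libraries 4 beta segments carried nearly all beta V segment RNA. Trbv5 (ENSMUSG00000076465, chromosome 6, 41062332 to 41062803) was at 347, 332 and 313 CPM in ESC-derived replicates 1 to 3 and at 0.351, 0.613 and 0.523 CPM in LSK replicates 1 to 3. The ESC-derived values lay close together and far above each LSK value, a log2 fold change of 9.38 ± 0.24 (approximate SE, edgeR adjusted p = 3.8e-06). Trbv19 (chromosome 6, 41178375 to 41179048) was at 280, 267 and 220 CPM in ESC-derived libraries and 0.681, 1.12 and 1.13 CPM in LSK libraries. It rose by 8.03 ± 0.27 on the log2 scale (edgeR adjusted p = 8.84e-06). Trbv31 (chromosome 6, 41557691 to 41558452), the only beta V segment annotated on the minus strand, was at 151, 160 and 139 CPM in ESC-derived libraries and 0.33, 0.416 and 0.305 CPM in LSK libraries. Its log2 fold change was 8.73 ± 0.21 (edgeR adjusted p = 3.17e-06), and its groups did not overlap. Trbv13-3 (chromosome 6, 41130147 to 41130585) was at 75.3, 64.8 and 69.7 CPM in ESC-derived libraries and 0.309, 0.438 and 0.762 CPM in LSK libraries. It rose by 7.11 ± 0.39 on the log2 scale (edgeR adjusted p = 5.51e-05). Per exonic kb, which allows levels of different genes to be compared, the ESC-derived means were 899 ± 45.5 CPM for Trbv5, 452 ± 55.05 for Trbv19, 359 ± 25.1 for Trbv31 and 206 ± 15.55 for Trbv13-3. The coefficients of variation of these 4 segments over the ESC-derived libraries were 5.06 to 12.2%, with a median of 7.28%. The median over the 1979 tested genes with ESC-derived means in the range of these 4 was 14.7%. Of those genes, 39.7% had a lower coefficient of variation than Trbv19, the most variable of the 4.

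Another 4 beta segments were called higher at lower levels. Trbv13-2 was at 19.8, 27.3 and 19.6 CPM in ESC-derived libraries and 1.16, 0.897 and 0.653 CPM in LSK libraries, a log2 fold change of 4.62 ± 0.39 (edgeR adjusted p = 0.000315). Trbv16 was at 18.5, 7.06 and 19.8 CPM against 0.371, 0.350 and 0.762 CPM, and rose by 4.93 ± 0.64. Trbv1, the segment farthest from the D and J segments, was at 13.8, 5.86 and 15.3 CPM against 0.165, 0.153 and 0.653 CPM, and rose by 5.16 ± 0.84 (6.16 without LSK replicate 3). In both segments ESC-derived replicate 2 was the lowest of its group, with coefficients of variation of 46.4 and 43.5%. Trbv12-2 was at 6.83, 13.6 and 10.7 CPM in ESC-derived libraries and at 0.268, 0.394 and 0.131 CPM in LSK libraries, a rise of 5.28 ± 0.66. Here ESC-derived replicate 2 was the highest of its group. None of these 4 segments had overlapping groups.

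The remaining tested beta segments did not pass the test. Trbv29 was at 3.28, 2.24 and 1.39 CPM in ESC-derived libraries and 0.289, 0 and 0.261 CPM in LSK libraries, with no overlap but a log2 fold change of 3.63 ± 1.39 (edgeR adjusted p = 0.0977, range over 15 alternatives 0.0193 to 0.191). It passed with DESeq2, with limma-voom and with values divided by 4. Trbv2 was at 3.47, 2.31 and 0.148 CPM against 0.165, 0.678 and 0.784 CPM, and its groups overlapped through ESC-derived replicate 3. Trbv13-1 was at 1.81, 0.850 and 0.444 CPM against 0.124, 0.547 and 0.871 CPM, and also overlapped. Trbv3 was at 0.928, 0.921 and 0.866 CPM in ESC-derived libraries and 0.722, 0.941 and 1.52 CPM in LSK libraries, a log2 fold change of -0.23 ± 0.74 (edgeR adjusted p = 0.851), with a sign that turned without LSK replicate 3. Trbv4, Trbv12-1, Trbv14, Trbv15, Trbv17 and Trbv26 had overlapping groups and adjusted p-values from 0.316 to 0.981. The untested Trbv20 had 8, 10 and 9 counts in ESC-derived libraries and 14, 9 and 11 in LSK libraries. The counts of Trbv20 and Trbv3 thus overlapped between groups, while Trbv5 had 14077 to 14836 counts in ESC-derived and 17 to 28 in LSK libraries.

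Usage was then expressed as the share of each segment in the summed Trbv counts per exonic kb of a library. In the ESC-derived libraries Trbv5 held 42.7, 42.6 and 43.3%, Trbv19 22.4, 22.3 and 19.8%, Trbv31 16.4, 18 and 16.9%, and Trbv13-3 10.1, 8.99 and 10.4%. Together these 4 held 91.5, 91.9 and 90.5% in ESC-derived libraries and 23.2, 30.5 and 26.2% in LSK libraries. In the LSK libraries the leading segment was Trbv13-2 in replicates 1 and 2 (20.5 and 13.6%) and Trbv3 in replicate 3 (13.7%). Trbv3 held 11.3 ± 2.15% of LSK usage and 0.0949 ± 0.00227% of ESC-derived usage, while its CPM overlapped between the groups. The leading segment held 42.9 ± 0.388% in ESC-derived and 15.9 ± 3.95% in LSK libraries, without overlap (exact two-sided permutation p = 0.1, the smallest 3 against 3 allows). As shares of counts, not divided by length, Trbv5 held 37.8% and Trbv19, whose annotated exons span 566 bases, held 29.2% in the ESC-derived mean.

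**Figure D2:**
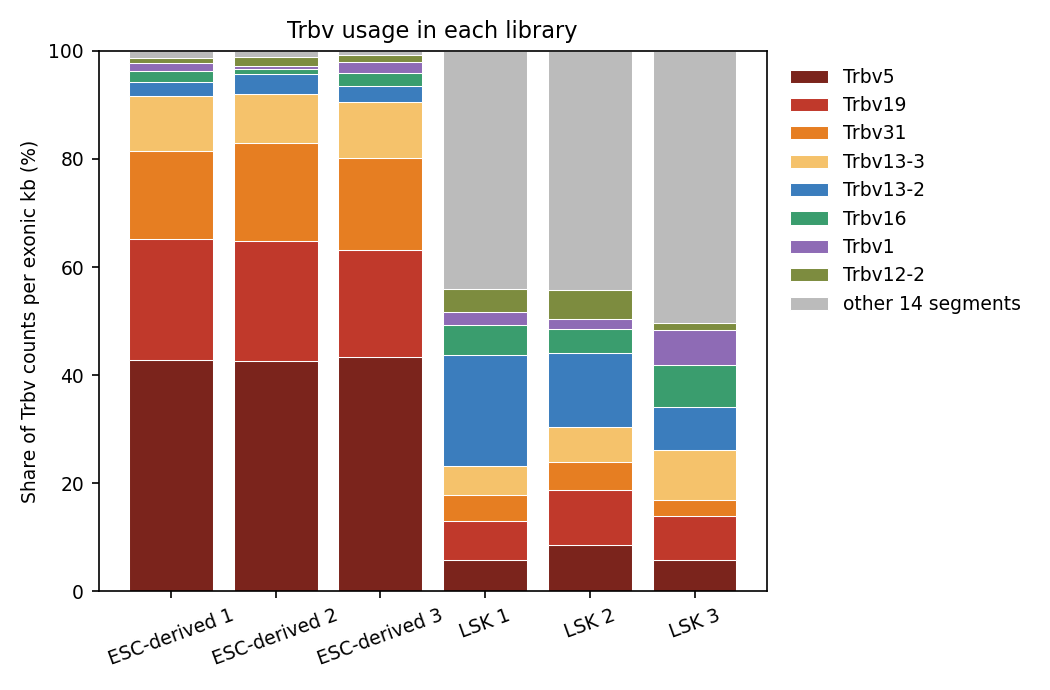
Share of each Trbv segment in the summed Trbv counts per exonic kb, 1 bar per library. The 8 largest segments of the ESC-derived mean are coloured and the other 14 are grey. Trbv5, Trbv19, Trbv31 and Trbv13-3 fill 90.5 to 91.9% of the 3 ESC-derived bars and 23.2 to 30.5% of the LSK bars.

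The order of the ESC-derived shares was clear at the top. Trbv5, Trbv19, Trbv31, Trbv13-3, Trbv13-2 and Trbv16 followed each other with no overlap between the libraries of neighbours. Trbv16, Trbv1 and Trbv12-2 overlapped, as did the neighbours from Trbv29 downward. In all, 14 of 20 neighbouring pairs overlapped in the ESC-derived libraries and 19 of 19 in the LSK libraries. In the ESC-derived mean 8 segments held at least 1% of usage, and the other 14 held 1.08% in sum. In the LSK mean 20 of 22 held at least 1%, all but Trbv21 and Trbv23.

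Diversity was summarised by the effective number of segments, the exponential of the Shannon entropy of the shares, which equals the number of segments if all are used alike. It was 4.91, 4.77 and 4.96 in ESC-derived replicates 1 to 3 and 15.6, 15.2 and 14.85 in LSK replicates 1 to 3. The groups did not overlap, and the difference of -10.3 was many times the SDs of 0.102 and 0.399 (exact two-sided permutation p = 0.1, the smallest possible). The LSK libraries held only 315, 363 and 459 Trbv counts, and the ESC-derived libraries 37590 to 38856. In a draw of 79 fragments, the number behind the smallest library, the expected number of segments was 7.29 to 7.75 in ESC-derived and 16.8 to 20 in LSK libraries. The number of segments above 0 was 19, 19 and 17 in ESC-derived and 20, 18 and 17 in LSK libraries, which overlapped. With segments under 12 counts in a library set to 0, the LSK effective numbers fell to 10.4, 10.3 and 13.5 and the ESC-derived ones were 4.74 to 4.94. Without the 4 leading segments, an alternative chosen after seeing the data, the effective number over the remaining 18 was 6.43, 5.30 and 5.32 in ESC-derived and 11.7, 11.4 and 11.1 in LSK libraries.

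**Figure D3:**
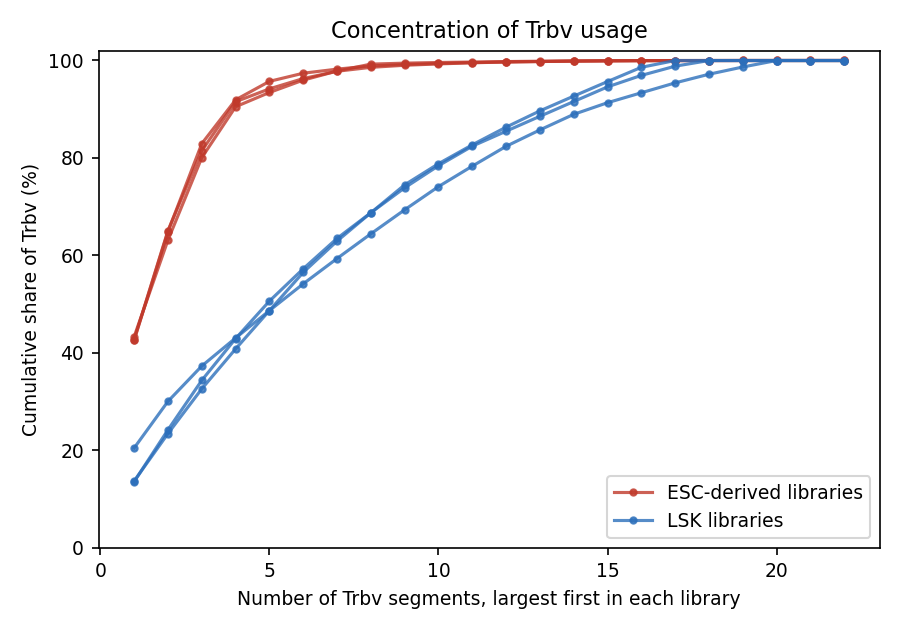
Cumulative share of Trbv usage (counts per exonic kb) against the number of segments, taken from the largest down within each library. The ESC-derived lines (red) reach 90.5 to 91.9% with 4 segments, and the LSK lines (blue) rise more slowly. The number of segments above 0 overlaps, 17 to 19 in ESC-derived and 17 to 20 in LSK libraries.

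The 3 ESC-derived libraries were close to each other in usage. The shared usage of a pair of libraries, the sum over segments of the smaller of both shares, was 94.7 to 96.5% within the ESC-derived group, 68.4 to 76.9% within the LSK group and 31.3 to 39.75% between groups. The lower overlap within the LSK group goes with its low counts, and the part of those counts in it was not tested. For the alpha chain, the effective number over 108 Trav segments was 37.3, 40.9 and 42.4 in ESC-derived libraries and 13, 22 and 18.6 in LSK libraries, in the other direction from Trbv. LSK Trav counts were also low, with a summed level of 6.90 to 7.90 CPM against 444 to 530 CPM in ESC-derived libraries.

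The leading segments did not lie together in the locus. Relative to Trbd1, the first beta D segment, the left ends of Trbv5, Trbv13-3 and Trbv19 lay at -470.9, -403.1 and -354.8 kb, on the side of Trbv1, and Trbv31 lay at 24.5 kb on the other side, beyond the constant genes. Trbv4, the nearest listed segment to Trbv5, held 0.0375% of ESC-derived usage, and Trbv20, next to Trbv19, held 0.0293%. The 14 beta and delta V pseudogenes of the annotation had 0 counts in the ESC-derived libraries and 2 in the LSK libraries, both in 1 gene.

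**Figure D4:**
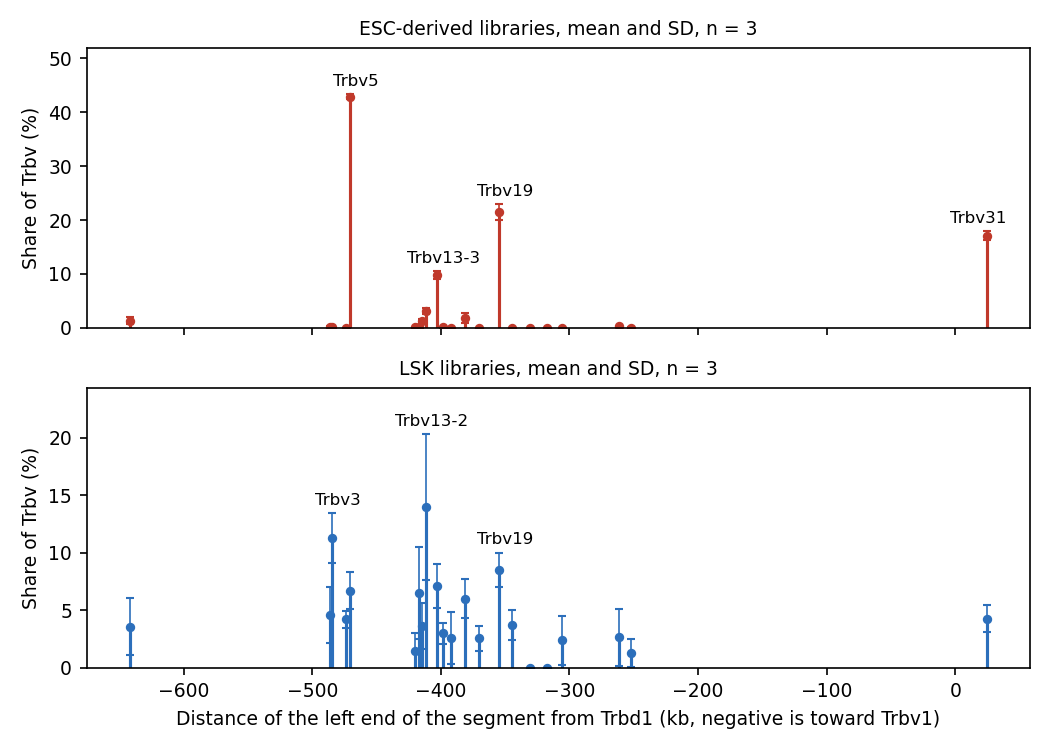
Mean share of Trbv usage (%, bars are SD, n = 3 libraries) against the distance of each segment from Trbd1 in kb, for ESC-derived (upper) and LSK (lower) libraries, with different vertical scales. Trbv5, Trbv13-3, Trbv19 and Trbv31 stand out in the ESC-derived panel, at separate places in the locus, and LSK usage is spread over the segments.

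The gamma chain pairs with the delta chain in gamma-delta T cells, and gamma genes can also be joined and transcribed in cells that bear an alpha-beta receptor. Gamma segments were a large part of the V segment RNA of ESC-derived cells. Trgv2 (chromosome 13, 19336573 to 19337167) was at 204, 243 and 210 CPM in ESC-derived libraries and 0.351, 0.876 and 0.588 CPM in LSK libraries, a log2 fold change of 8.50 ± 0.36 (edgeR adjusted p = 1.98e-05). Tcrg-V1 (chromosome 13, 19339989 to 19340454) was at 77.3, 77.4 and 88.2 CPM against 1.32, 0.941 and 0.0871 CPM, and rose by 6.68 ± 0.81 (7.29 without LSK replicate 1). Tcrg-V4 was at 96, 82 and 72.9 CPM in ESC-derived libraries and had 9, 0 and 0 counts in LSK libraries, a ratio of summed levels of 1295 (95% counting interval 382 to 8979). All 9 LSK counts lay in replicate 1, and the fitted log2 fold change was 10.3 with and 14.86 without that library, the second against libraries at 0 and so no measure of size. Tcrg-V3 was at 60.3, 66.7 and 61.1 CPM and had 6, 3 and 0 LSK counts, a ratio of 975.2 (288 to 6762), with a fitted log2 fold change of 9.88, and of 10.78 without LSK replicate 1. Both were called higher by edgeR (adjusted p = 0.00037 and 0.000122). Tcrg-V7 was lower, with 99, 62 and 312 counts in ESC-derived and 0, 0 and 5 in LSK libraries (ratio 101, counting interval 20.55 to 2140). Its call (edgeR adjusted p = 0.0286, range over 15 alternatives 6.89e-05 to 0.0937) did not hold without LSK replicate 1 (0.0721) or 2 (0.0937), nor without ESC-derived replicate 1 (0.0508) or 3 (0.0825). Its fitted log2 fold change of 6.48 was 5.62 without ESC-derived replicate 3 and 10.29 without LSK replicate 3, which holds all 5 of its LSK counts. Tcrg-V5 had 0, 10 and 49 counts in ESC-derived libraries and 0 in LSK libraries. It was not tested, its groups overlapped at 0, and most of its counts lay in ESC-derived replicate 3.

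As shares of the summed gamma V counts per exonic kb, Trgv2 held 40.6, 45.5 and 41.6% in ESC-derived libraries, Tcrg-V1 20.1, 19 and 22.9%, Tcrg-V4 22, 17.7 and 16.6%, and Tcrg-V3 16.7, 17.4 and 16.8%. Trgv2 lay above the others without overlap, and Tcrg-V1, Tcrg-V4 and Tcrg-V3 overlapped in turn. Usage was shared to 94.3 to 94.6% between ESC-derived libraries, 27.7 to 74.45% between LSK libraries and 48.9 to 66.8% between groups. Some pairs from different groups were thus more alike than some LSK pairs. The effective number of gamma segments was 3.86, 3.71 and 4.01 in ESC-derived and 2.52, 2.28 and 2.29 in LSK libraries, without overlap and in the other direction from Trbv (exact two-sided permutation p = 0.1, the smallest possible). The LSK values rest on 96, 86 and 36 gamma counts, and the part of that low number in the difference was not tested.

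Each gamma V segment lies in a cluster with a constant gene, which allows V and C counts of a cluster to be set side by side. The near copies Tcrg-V1, Trgv2 and Tcrg-V3 (94.6 to 95.7% identical) lie in different clusters. Counts split among them by the counting would therefore move between clusters. The identity of the constant genes to each other was not measured, and the same may hold for them. Trgv2 had 8592, 10291 and 9960 counts in ESC-derived libraries, beside 26753, 26700 and 29633 for Tcrg-C2. Tcrg-V3 had 2537, 2823 and 2892, beside 2558, 2748 and 3241 for Tcrg-C3. Tcrg-V1 had 3248, 3278 and 4177, beside 16855, 16551 and 22590 for Tcrg-C4. Per constant count there were thus 0.321 to 0.385 V counts in the Tcrg-C2 cluster, 0.892 to 1.03 in the Tcrg-C3 cluster and 0.185 to 0.198 in the Tcrg-C4 cluster of the ESC-derived libraries. In the Tcrg-C1 cluster, whose segments are Tcrg-V4, Tcrg-V5, Tcrg-V6 and Tcrg-V7, there were 0.286 to 0.315 V counts per constant count in ESC-derived libraries and 0.0143, 0 and 0.0658 in LSK libraries. LSK libraries held 629, 425 and 76 Tcrg-C1 counts beside at most 9 counts of its V segments, so constant gene RNA was present there with few or no V counts. The other clusters did not share this pattern: LSK libraries had 0.354, 0.597 and 0.307 V counts per constant count in the Tcrg-C2 cluster and 0.393, 0.316 and 0.143 in the Tcrg-C4 cluster, both overlapping the ESC-derived values. In the Tcrg-C3 cluster they had 1.5, 0.75 and 0, from at most 6 V and 4 constant counts. V and constant genes differ in length and these ratios are of counts, so they are compared only between libraries within a cluster.

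**Figure D5:**
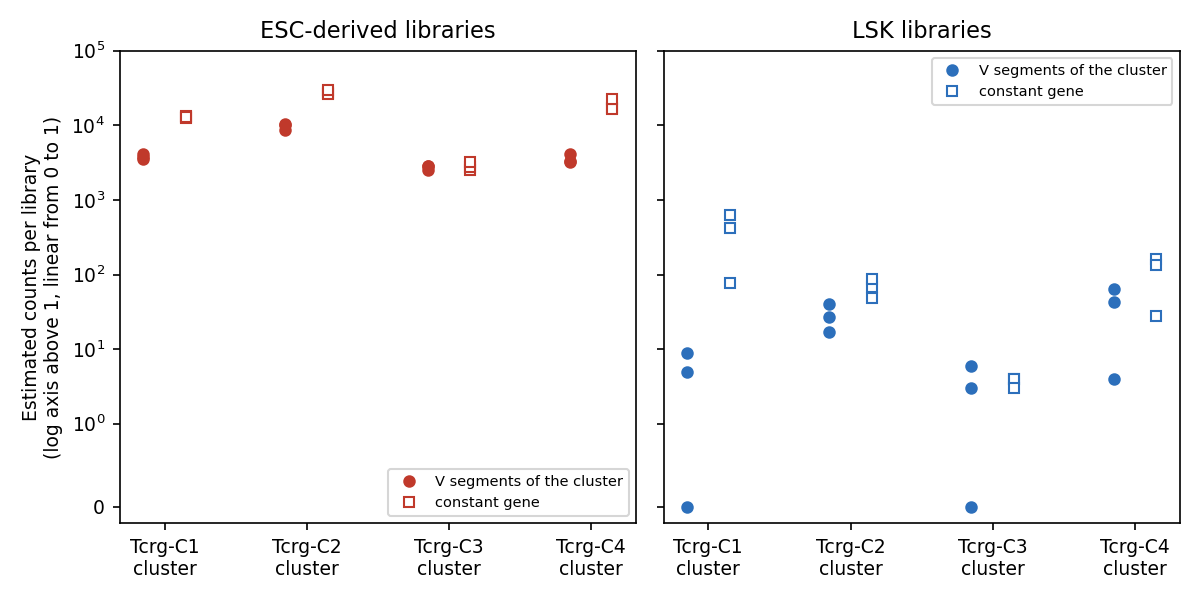
Estimated counts per library of the V segments of each gamma cluster (filled circles, summed within the cluster) and of its constant gene (open squares), log axis above 1 and linear below it, in ESC-derived (left) and LSK (right) libraries. In the Tcrg-C1 cluster the LSK constant gene has 76 to 629 counts and its V segments 0 to 9.

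Delta segments, here only the 5 rows with symbols starting with Trdv, were scarce. Trdv2-2 had 325, 344 and 169 counts in ESC-derived libraries (7.73, 8.12 and 3.57 CPM) and 0, 5 and 0 in LSK libraries, a ratio of 178 (95% counting interval 36.7 to 3776, edgeR adjusted p = 0.0112). All 5 LSK counts lay in replicate 2, and leaving it out moved the fitted log2 fold change from 7.38 to 11.18 (edgeR adjusted p = 0.0107), against libraries at 0. Trdv1 had 122, 119 and 79 counts against 0, 9 and 0, a ratio of 37.8 (10.8 to 267), and was not called (edgeR adjusted p = 0.0641, range over 15 alternatives 0.00509 to 0.133), though it passed with limma-voom, with DESeq2, without LSK replicate 2, after division of the values by 4 and under a filter of 50 counts in 3 libraries. Trdv4 had 20, 168 and 34 counts in ESC-derived libraries, most of them in replicate 2, and 0 in LSK libraries, at least 19.7-fold higher against the floor of 12 counts over the LSK group. The fitted log2 fold change of 9.29 was 7.78 without ESC-derived replicate 2. Its call (edgeR adjusted p = 0.0217, range over 13 alternatives 0.000112 to 0.0811) did not hold in a fit blocked on replicate number (0.0811), without ESC-derived replicate 2 (0.0624) and without any one LSK library (0.0513 to 0.067). Trdv5 had 0, 0 and 169 counts in ESC-derived libraries and 0 in LSK libraries. It lies on the minus strand, overlaps the plus-strand constant gene Trdc by 207 bases, and cannot be told from it there without strand information.

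In sum over segments, gamma segments held 31.5, 33.5 and 34.1% of the 34 segments' counts per exonic kb in ESC-derived libraries and 23.3, 18.1 and 6.60% in LSK libraries, and delta segments held 0.894, 1.16 and 0.786% and 0, 3.47 and 0%. Gamma and delta together held 34 ± 1.41% in ESC-derived and 17.2 ± 9.18% in LSK libraries, without overlap (exact two-sided permutation p = 0.1), the LSK values resting on the same few gamma counts. Among the constant genes of the ESC-derived libraries, the beta gene Trbc2 was at 2657 ± 208 CPM per exonic kb, the alpha gene Trac at 1071 ± 109, the gamma gene Tcrg-C2 at 690 ± 5.71 and the delta gene Trdc at 1.81 ± 0.656. Beta V counts per Trbc1 and Trbc2 count, a ratio chosen after seeing the data, were 0.300, 0.271 and 0.295 in ESC-derived and 0.188, 0.220 and 0.315 in LSK libraries, which overlapped (exact two-sided permutation p = 0.4). Reads of Trbc1 and Trbc2 can be split between these near-identical genes, which is why they were summed.

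Genes that work with the V segments moved as follows. The 8 receptor constant genes were all called higher in ESC-derived cells, as were 4 of 4 tested genes of the CD3 complex and pre-receptor and 3 of 3 co-receptors, while Ptcra, the pre-receptor alpha chain of thymocytes, had 0 counts in each library. Of 70 J segments, 12 passed the filter and 12 were called higher, and of 4 D segments 2 passed and 2 were called higher. Among all genes tested, 14.8% were called higher. In the LSK libraries 48 of the 70 J and 2 of the 4 D segments had 0 counts. The J segments summed to 0.536 to 0.610 CPM there and to 14.9 to 17.7 CPM in ESC-derived libraries. Segments at 0 in LSK libraries could pass the filter only through their ESC-derived counts, so these calls are a description. Of 13 tested V(D)J recombination genes 2 were called higher and 4 lower, beside 14.8 and 15.2% of all tested genes. The 2 higher were Hmgb2, at 4350 ± 726.5 CPM in ESC-derived and 1222 ± 59.2 CPM in LSK libraries, and Polm, at 8.22 ± 2.72 and 0.600 ± 0.0699 CPM. Dntt, which adds bases at the joins, was at 0.173 ± 0.222 CPM in ESC-derived and 275 ± 23.3 CPM in LSK libraries, and the recombinase genes Rag1 and Rag2 had 0 counts in the ESC-derived libraries and 8 and 357 in the LSK libraries. Of 12 genes listed for gamma-delta T cells, which share Trdc, Tcrg-C1 and Tcrg-C2 with the constant genes, 8 were called higher and 1 lower. Cxcr6, also made by other T cells, was at 1149 ± 211 CPM in ESC-derived libraries, while Sox13 had 21 and Zbtb16 had 0 ESC-derived counts.

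Markers of other cells moved with the groups too. For the calls that follow, the shares over all tested genes were 14.8% higher and 15.2% lower. Of 6 tested NK cell genes 6 were called higher (sum of the 8 listed 310 to 393 CPM in ESC-derived and 22.5 to 24.1 in LSK libraries). Klra8 was at 0 in the ESC-derived libraries, and Klra4 was at 0 in each of the 6 libraries. Of 5 tested ILC2 genes 3 were called higher (522 to 584 against 24.3 to 28.3 CPM). Il13 had 0 counts in ESC-derived and 4 in LSK libraries. In ESC-derived means the ILC2 sum lay mostly in Icos, Klrg1 and Gata3 (211, 191 and 128 CPM). Areg was at 1.07 and Il1rl1 at 0.857 CPM. Il9r was at 10.7 CPM against 1.18 CPM in the LSK mean, without overlap, and was not called (edgeR adjusted p = 0.159). Il5, which was not tested, had 140, 121 and 0 counts in ESC-derived replicates 1 to 3 and 0 in LSK libraries. The NK sum lay mostly in Gzma and Prf1 (201 and 58.0 CPM). The other NK genes called higher were Eomes, Klrb1c, Ncr1 and Klre1. Their ESC-derived means were 34.0, 24.9, 20.35 and 10.5 CPM, against LSK means of 0.906, 2.78, 2.32 and 0.102 CPM. Whether NK cells, ILC2 or T cells made these RNAs was not tested. NK and innate lymphoid cells can transcribe unjoined receptor genes, and their part in the V segment counts was not tested. Of 7 neutrophil genes 5 were called higher and 0 lower (2174 to 4285 against 1052 to 1171 CPM), and of 5 monocyte genes 2 and 0 (1316 to 1794 against 826 to 904 CPM). Of 8 B cell genes 0 were called higher and 5 lower (7.42 to 15.1 against 571 to 593 CPM), and of 6 plasma cell genes 1 and 5 (86.8 to 102.1 against 4205 to 4926 CPM). Of 5 tested thymocyte genes 1, Themis, was called higher and 3 lower (98.5 to 164 against 344 to 382 CPM).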

How the data were processed

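RNA from 6 libraries was reverse transcribed with the SMART-Seq v4 kit and made into Nextera XT libraries, per the labels' protocols; these kits do not mark strand. HISAT, StringTie and mm10 are listed in the submitters' processing notes. The deposited values are estimated counts per gene ID, whole numbers that the authors made from their alignments; their settings are not stated. The table's header holds all library names in 1 field, and columns were assigned in the order of those names. IDs were matched to GENCODE M21 (55141 of 55401, 260 unmatched) for symbols, biotypes and exonic lengths.

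The values were rounded and fitted with edgeR 4.0.16 in R 4.3.3 (filterByExpr, TMM scaling, quasi-likelihood F test, Benjamini-Hochberg adjustment over 16211 genes, threshold 0.05, both groups, no block). The test gives no SE. The approximate SE printed with a log2 fold change is its absolute value divided by the square root of the F statistic. Shares used counts per exonic kb, and tests on them were exact two-sided permutation tests over libraries. Ratios of sums carry 95% intervals computed on counts divided by 4; intervals and floors cover counting error only, and PCR copies are not independent molecules. On data simulated from these libraries the fit recovered 10, 42, 60 and 70% of genes changed 2-, 4-, 8- and 16-fold, 50 each among 15496 genes. The changed genes were drawn only from those with a mean above 1 CPM over the libraries, and 3 unchanged genes were called. Larger changes, such as those of the leading V segments, were not simulated. Alternatives were DESeq2 1.42.0, limma-voom (limma 3.58.1), other scalings, filters and count scales, a replicate block, leaving out each library, and other usage measures.

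The members and gene lists were chosen with earlier results of these data known. Named were all gamma and delta segments, the 10 beta segments highest per kb in ESC-derived and the 5 highest in LSK libraries, the 3 most and 3 least variable at 1 CPM or more, the constant genes, and up to 3 genes per other list by level. The other genes named (among them Trbv4, Trbv20 and genes at 0) were chosen after their values were seen.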

Additional observations from a re-analysis of the deposited data

How the results depend on the processing

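Over 15 alternatives 13 to 17 of the V segments were called higher and 0 lower. Genes called in the whole table numbered 4861, and 3220 with the replicate number as a block, under which 14 segments were higher. Deviations of same-numbered libraries correlated at 0.014, 0.038 and 0.017, so the numbers were not taken to pair the libraries. Leaving out 1 library gave 2716 (without LSK replicate 2) to 4603 genes and 13 to 14 segments. The difference in the Trbv effective number (-10.34) was -6.53 with segments under 12 counts set to 0, -9.15 as the inverse Simpson index and -5.73 without the 4 leading segments. The difference in the leading share (27 percentage points) was 22.1 as shares of counts. Of the 11 uncalled segments Trbv3, Trbv4, Trbv17 and Trbv26 changed sign under some alternative, and the others kept theirs in each one run. Leaving out 1 library moved log2 fold changes between -0.87 and 0.39 for Trbv4, -0.45 and 0.11 for Trbv3, -6.23 and 0.66 for Trbv17, and -1.1 and 0.28 for Trbv26. Trbv17 was at -2.11 with limma-voom, -0.16 with library totals and -3.06 with the replicate block, and Trbv26 at 0.47 with limma-voom. The cause was not tested. Depth limits the LSK shares, which rest on 315 to 459 Trbv counts.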
